A study of Homo sapiens with 42 samples.

Results

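SCC25 is an established human head and neck squamous cell carcinoma (HNSCC) line that does not carry human papillomavirus (HPV) according to the study, and it has the lowest cell survival under cetuximab in the labels. Its 3 control arrays were set against the 15 control arrays of 5 other HNSCC lines, SQ20B, SCC61, SCC047, SCC090 and 93VU147T, with 3 arrays a line and 18 of the 42 arrays of the series in all. The members of the SCC25 program are the genes for which all 3 SCC25 arrays lay outside the range of all 15 other arrays and for which the 5 line-by-line differences had the same sign and the largest of their 5 p-values, adjusted over all genes, was under 0.05. The adjusted p beside a gap is that value. Of 19775 genes measured, 480 lay above the range (2.43%) and 433 below it (2.19%), 913 in either direction (4.62%). For 141 of these the mean of SCC25 was 2-fold or more above the nearest other line (0.713% of all genes), and for 70 it was 2-fold or more below it (0.354%). Without the test, all 3 SCC25 arrays lay above all 15 others for 816 genes (4.13%) and below them for 789 (3.99%).

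Gene expression was measured on Affymetrix expression arrays in untreated cells and in cells given 100 nM cetuximab for 24 h. The control arrays are labelled untreated, and the study's methods name phosphate-buffered saline as the vehicle. SQ20B and SCC61 are HPV-negative lines, and SCC047, SCC090 and 93VU147T are HPV-positive. The labels give each line 1 value of cell survival after cetuximab, without an error: 7.61% in SCC25 and 28.65% to 40.16% in the other lines. Each line stands for 1 tumour, and the p-values measure the spread between arrays of a line, not the spread between lines.

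Cetuximab is an antibody that binds the epidermal growth factor receptor (EGFR) and blocks its ligands. Squamous epithelium is built of basal keratinocytes, which make keratins 5 and 14 and sit on a basement membrane through hemidesmosomes, and of suprabasal cells that hold together by desmosomes and end as a cornified layer. Squamous carcinomas keep parts of this order and often add matrix proteins and proteases of the tumour stroma to what they make.

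Levels are log2 intensities as deposited, 1 probe set a gene, and a difference of 1 is 2-fold. "Difference" is the mean of the 3 SCC25 arrays minus the mean of the 5 other line means, and "gap" is the mean of SCC25 minus the mean of the nearest other line, each ± the standard error (SE) of the fit with n = 3 arrays a line. By the difference alone 9127 genes passed (46.2%), 4326 of them higher in SCC25 (21.9%) and 4801 lower (24.3%), and the median difference of all genes was -0.00493. The counts of each gene list below are to be read against those shares. The median SD between the 3 arrays of a line was 0.0899 in SCC25 and 0.0922 to 0.114 in the others, and the median SE of the difference was 0.0794. The difference between 3′ and 5′ probe sets of ACTB, a measure of RNA integrity, was 0.252 to 0.260 on the log2 scale in SCC25 and 0.150 to 0.459 in the other controls. In RNA from whole cultures, a lower share of cells that make a transcript and less of it per cell cannot be told apart.

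The promoters of 4 genes that the results turn on are printed here because they show the start-site regions of a gene far above the range (FAM83C), a differentiation gene above it (KRTDAP), a gene far below it (ZBTB21) and a tight-junction gene below it (CLDN4). They are the 200 bases upstream of the RefSeq start on GRCh38.p14, 5′ to 3′ on the gene's strand, and were chosen partly for the motifs they hold. Capitals mark matches to 3 motifs, searched on both strands. GCCNNNGGC is the motif of the AP-2 family. The letters TGANTCA stand for the AP-1 site, which Fos and Jun proteins bind. The TATA box was searched as TATAAA.
FAM83C, chr20:35292426-35292625, minus strand: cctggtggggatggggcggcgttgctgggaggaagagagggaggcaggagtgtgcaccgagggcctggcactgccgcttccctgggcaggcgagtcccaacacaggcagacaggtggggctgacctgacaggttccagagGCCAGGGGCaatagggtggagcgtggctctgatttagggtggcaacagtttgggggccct
KRTDAP, chr19:35490465-35490664, minus strand: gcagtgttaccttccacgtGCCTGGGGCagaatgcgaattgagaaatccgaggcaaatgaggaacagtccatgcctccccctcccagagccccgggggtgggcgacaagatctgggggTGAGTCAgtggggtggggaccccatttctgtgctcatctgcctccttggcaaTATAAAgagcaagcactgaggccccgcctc
ZBTB21, chr21:42010361-42010560, minus strand: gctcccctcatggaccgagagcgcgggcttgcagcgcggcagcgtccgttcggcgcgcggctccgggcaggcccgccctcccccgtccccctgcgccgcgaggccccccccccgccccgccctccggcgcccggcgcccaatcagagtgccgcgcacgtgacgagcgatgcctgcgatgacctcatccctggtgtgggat
CLDN4, chr7:73830796-73830995, plus strand: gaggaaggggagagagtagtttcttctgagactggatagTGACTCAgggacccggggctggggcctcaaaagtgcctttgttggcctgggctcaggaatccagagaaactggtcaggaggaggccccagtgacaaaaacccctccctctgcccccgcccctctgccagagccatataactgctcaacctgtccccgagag
FAM83C held 1 AP-2 match, KRTDAP 1 match to each of the 3 motifs, CLDN4 1 AP-1 match and ZBTB21 none. Over all 15384 genes with such a promoter, 21.4% held the AP-2 motif, against 23 of 104 matched genes above the range by 2-fold or more (22.1%) and 15 of 59 below it (25.4%). The AP-1 motif stood in 4.02% of all promoters, in 10 of the 104 (9.62%) and in 2 of the 59 (3.39%), and the TATA box in 6.6%, 10.6% and 5.08%. These are letter matches in a short window and were not tested.

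The largest gap belonged to FAM83C, a gene of a family of docking proteins for casein kinase 1. Its level was 8.88, 8.82 and 8.89 in the 3 SCC25 arrays and 3.63 to 4.24 with a median of 4.10 in the other 15. All 5 other lines sat together at the low end, and the nearest of them was 93VU147T (gap 4.66 ± 0.127, adjusted p 4.66e-15). FAM83C was low in HaCaT too, a spontaneously immortalised skin keratinocyte line with 3 control arrays of its own (4.04).

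LUM, LAMA1, MMP3 and SELENOP encode secreted or matrix proteins. LUM, the small leucine-rich proteoglycan lumican of collagen-rich matrix, read 7.69, 7.61 and 7.32 in SCC25 and 2.80 to 3.89 with a median of 3.21 in the others, a gap of 3.79 ± 0.125 to SCC61 (adjusted p 5.25e-14). The second probe set of LUM was dim and higher in SCC25 by 0.11. LAMA1, the laminin alpha 1 chain of basement membranes, read 8.29, 8.18 and 8.18 against 3.75 to 4.77 with a median of 4.06, and its gap to SCC047 was 3.68 ± 0.116 (adjusted p 2.52e-14). For both genes the 2 sets of arrays were far apart. For MMP3, the matrix-degrading protease stromelysin-1, the 3 SCC25 arrays spread more (8.47, 8.34 and 7.59) and still lay above all 15 others (3.43 to 5.43 with a median of 3.62, gap 2.88 ± 0.167 to SQ20B). SELENOP, a secreted selenium carrier, read 9.91, 9.79 and 9.52 in SCC25. The nearest line, SCC090, read 5.54, 7.5 and 7.64, with an SD of 1.17 (gap 2.85 ± 0.329, adjusted p 4.92e-06).

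NEFL, HTR2C and SHANK2 are known from nerve cells. NEFL, the light chain of neurofilaments, read 10.79, 10.90 and 11.02 in SCC25, the highest level of the 6 lines. The other arrays ran from 3.31 to 8.39, with SCC047 at a mean of 8.13 and 93VU147T at 7.20, so NEFL was spread over the lines and not low in all 5. HaCaT lay at 10.01. HTR2C, a serotonin receptor, stood at 6.17, 5.93 and 5.77, low on the array scale but above every other array (3.12 to 3.56 with a median of 3.29, gap 2.61 ± 0.107). SHANK2, a scaffold of the postsynaptic density that lies in the 11q13 segment often amplified in these tumours, read 9.01, 8.94 and 8.90 against 3.96 to 6.42 with a median of 4.58 (gap 3.41 ± 0.248, adjusted p 8.14e-09). Of the 6 probe sets of SHANK2, 5 had a SCC25 mean above all other line means and 3 by 2-fold or more. The 6 neuroendocrine markers did not follow these genes: none reached a level of 6 in SCC25 and 1, CHGB, was lower by 0.25.

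G0S2 and PPP1R3C are known from fat and glycogen metabolism. G0S2, an inhibitor of triglyceride breakdown, read 9.28, 9.30 and 9.40 in SCC25 and 4.24 to 6.48 with a median of 4.68 elsewhere (gap 2.95 ± 0.0872, adjusted p 1.57e-14), and PPP1R3C, a subunit that steers a phosphatase to glycogen, read 8.67, 8.59 and 8.35 against 3.84 to 5.57 with a median of 4.35 (gap 3.25 ± 0.137, adjusted p 2.12e-12). In both the 2 groups of arrays were far apart. The other genes among the 15 with the largest gaps were GARIN5A (3.34), TCERG1L (3.32), GSPT2 (3.10), a translation termination factor, ZNF474 (2.69) and XG (2.54), a blood group antigen, whose other probe set was dim and differed by 0.0966. GSPT2 was the one lead gene above the range that HaCaT exceeded, at 7.50 against a SCC25 mean of 6.88. Without HaCaT in the comparison its 3 SCC25 arrays (6.95, 6.76 and 6.95) stood above all 15 others (3.50 to 3.90 with a median of 3.71).

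Below the range, ZBTB21 and MKKS stood out. ZBTB21, a zinc-finger transcription factor on chromosome 21, read 3.51, 4.0 and 3.60 in SCC25 and 7.54 to 8.33 with a median of 7.98 in the other 15 arrays. SCC25 was at the dim end of the array scale while the means of the 5 other lines lay between 7.57 and 8.12, and the gap to SQ20B was -3.87 ± 0.120 (adjusted p 2.52e-14). MKKS, a chaperonin-like protein of the primary cilium, read 4.88, 5.07 and 5.21 against 8.89 to 10.30 with a median of 9.67 (gap -3.86 ± 0.0898 to 93VU147T, adjusted p 7.34e-16). Both probe sets of each gene lay below, with gaps from -3.99 to -2.95, and HaCaT was at 8.04 for ZBTB21 and 9.98 for MKKS, among the other lines. PLS1, the actin-bundling protein plastin 1, was the third (3.82, 4.03 and 4.15 against 7.08 to 9.07 with a median of 7.99, gap -3.13 ± 0.0975).

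PPARG, the nuclear receptor that governs fat cell genes and takes part in epithelial differentiation, read 4.82, 4.55 and 4.80 in SCC25 and 6.53 to 8.07 with a median of 7.53 in the others (gap -2.04 ± 0.120, adjusted p 3.12e-10). RIPK4, a kinase needed for keratinocyte differentiation, read 5.74, 5.70 and 5.74, while the other lines ran from 7.41 in SCC090 to 11.23 in SCC047 (gap -1.89 ± 0.0964, adjusted p 3.34e-11). HaCaT had the most RIPK4, 11.43. For CYP2R1, a vitamin D 25-hydroxylase, the SCC25 arrays (4.18, 4.47 and 4.14) lay below the other 15 (6.93 to 8.28 with a median of 7.36, gap -2.89 ± 0.108), but HaCaT was as low (4.36). The remaining 9 of the 15 were GULP1 (-2.41), NICOL1 (-2.33), FAR2 (-1.96), TUSC3 (-1.94), MIR550A3HG (-1.88), RBPMS (-1.82), TMCC3 (-1.76), PRDM15 (-1.72) and SNHG17 (-1.69). FAR2 and SNHG17 were as low in HaCaT (4.0 and 7.61).

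Of the 30 leading genes 21 had several probe sets, and in 15 of these the SCC25 mean of every probe set lay outside the other line means in the same direction. The exceptions were SHANK2, CYP2R1, GULP1, FAR2, RBPMS and PRDM15, each with at least 1 probe set within the others or slightly past them the other way. Of the 15, only FAM83C, NEFL, ZBTB21, MKKS, RIPK4 and SNHG17 were outside by 2-fold or more in every probe set. In LUM, LAMA1, PPP1R3C, SELENOP, HTR2C and XG the smallest gap of a probe set was 0.0428 (XG) to 0.97 (HTR2C). In TUSC3, MIR550A3HG and TMCC3 it was -0.18, -0.30 and -0.50. The large gaps of these genes rest on part of their probe sets.

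**Figure D1:**
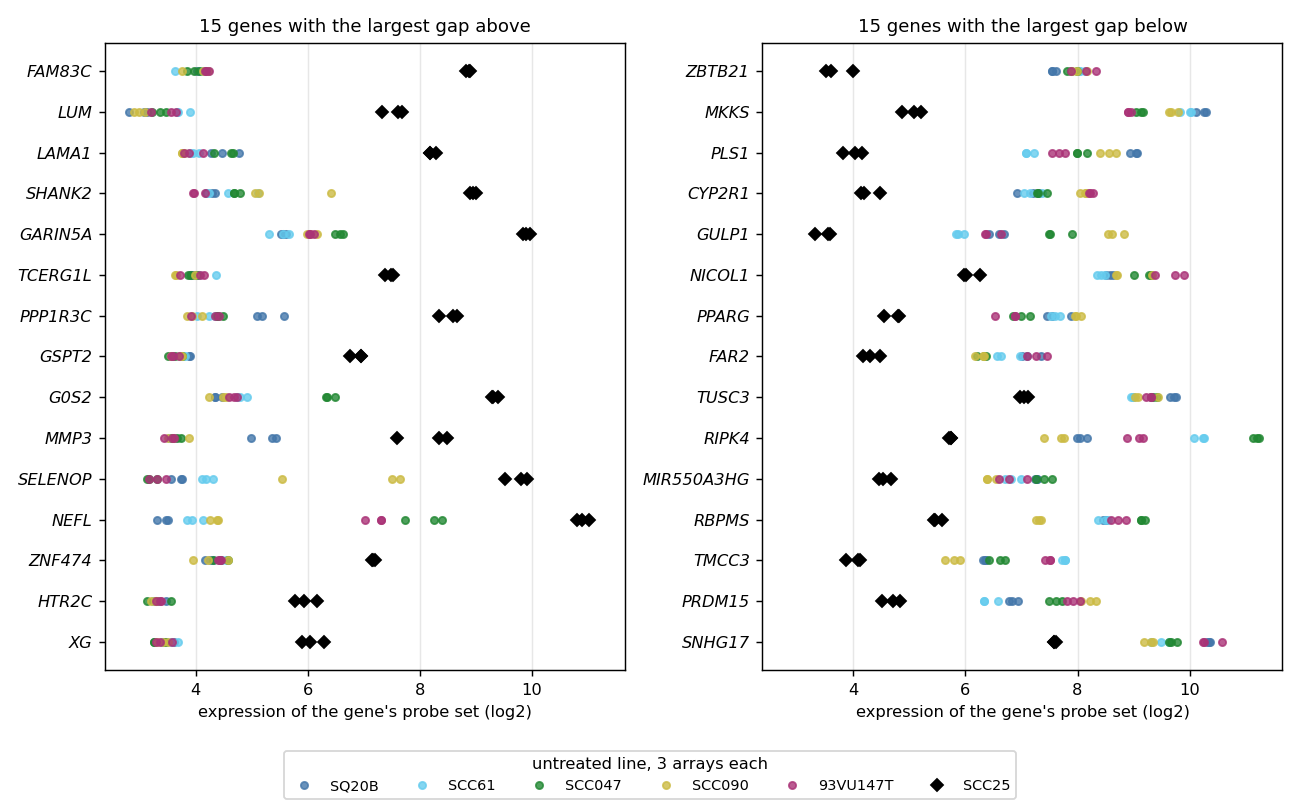
Level of the gene's probe set (log2, x axis) in each of the 18 untreated arrays for the 15 genes with the largest gap above (left) and below (right) the 5 other lines; black diamonds are the 3 SCC25 arrays and coloured circles the 3 arrays of each other line. SCC25 stands alone in every row, with FAM83C (gap 4.66) at the top left and ZBTB21 (gap -3.87) at the top right.

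The sizes fell off quickly after these. Of the 141 genes above by 2-fold or more, 34 were above by 4-fold or more, and the median gap was 1.51. Of the 70 below, 7 were below by 4-fold or more, and the median size was 1.29. In 63 of the 141 all 5 other lines had a mean under 6, near the dim end of the scale where 48.14% of all values lay, and in 26 all 5 were at 6 or more. In 49 of the 70 the SCC25 mean was under 6. The nearest other line of the genes above was SCC047 for 35, SCC61 for 34, SQ20B for 29, 93VU147T for 22 and SCC090 for 21, so no single line was nearest throughout. Of the 70 below, SQ20B was nearest for 25 and SCC047 for 7. The threshold of 1 cut through a continuum: NUMA1 (1.0004) and SYNC (1.005) lay just inside it above and APCDD1L (0.9993) just outside, and EPB41L2 (-1.0011) lay just inside it below and MPND (-0.9953) just outside.

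SCC25 carried the keratins of basal and activated squamous epithelium at high levels. KRT14, the acidic keratin of basal cells, read 14.19, 14.19 and 14.21 in SCC25. The other arrays ran from 4.67 to 13.70, low in SQ20B, SCC090 and 93VU147T and high in SCC61 and SCC047, so the difference of 5.49 ± 0.290 was large but KRT14 did not pass the range test. Its partner KRT5 read 13.37, 13.29 and 13.27 and lay above all 15 others (9.72 to 12.51 with a median of 12.13, gap 0.82 ± 0.216, adjusted p 0.0278). KRT16, a keratin of activated and hyperproliferative epidermis, read 11.16, 10.81 and 10.83 against 5.07 to 9.45 with a median of 7.67 (gap 1.61 ± 0.147, adjusted p 2.21e-07). Of 5 measured members of this list, 4 were higher, with a median difference of 1.75. HaCaT was close to SCC25 for KRT14 (14.03) and KRT5 (13.24).

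The keratins of simple epithelium split. KRT18 read 10.24, 10.22 and 10.53 and lay below all 15 others (10.71 to 13.40 with a median of 11.82, gap -0.54 ± 0.106), and KRT8 was lower than the mean of the lines by 0.93 without leaving their range. KRT7 went the other way, 8.89, 8.92 and 9.29 against 4.42 to 7.79 with a median of 7.41 (gap 1.29 ± 0.142, adjusted p 2.67e-06). The suprabasal keratins showed little: of 10 measured, KRT1 was higher (difference 1.34 ± 0.171), KRT80 lower (-3.28 ± 0.104) and 8 were not called.

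Desmosome genes were higher together. Of 13 measured, 11 were higher and 1 lower, with a median difference of 0.70, and DSG3 and DSG1, the desmogleins of stratified epithelium, lay above the range. DSG3 read 10.70, 10.45 and 10.24 against 7.93 to 9.72 with a median of 8.69 (gap 0.87 ± 0.132). DSG1 was dim, and its 3 SCC25 arrays, 5.34, 3.99 and 4.28, were uneven but above all others (3.07 to 3.48 with a median of 3.22, gap 1.26 ± 0.215). DSC3 and DSC2, the desmocollins, were higher than the mean of the lines by 1.32 and 1.25 but within their range, since SCC090 had 10.09 and 11.28. The hemidesmosome list gave 6 higher and none lower of 8 (median difference 0.55). DST, whose epithelial form is the plakin BP230, read 11.16, 10.96 and 10.63 against 8.13 to 10.45 with a median of 9.63 (gap 0.81 ± 0.190), and ITGB1, the beta 1 integrin, 12.78, 12.86 and 12.63 against 11.34 to 12.32 with a median of 12.01 (gap 0.51 ± 0.0990). DST rests on the choice of probe set: with the probe set of the highest MAD ratio its difference was -0.0177.

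Of 14 measured genes of the epithelial adhesion list, which is wider than cell-cell junctions, 8 were lower and 2 higher (median difference -0.54). Of these, 4 lay below the range and 1 above it, ST14, the membrane protease matriptase (difference 0.66). CLDN4, the tight-junction protein claudin 4, read 4.82, 4.49 and 4.90 in SCC25 against 5.66 to 7.89 with a median of 6.81 (gap -1.09 ± 0.160, adjusted p 0.000103). CLDN7 (7.79, 7.64 and 7.83 against 8.28 to 10.58 with a median of 9.27) and OCLN, occludin (6.44, 6.35 and 6.47 against 7.22 to 8.25 with a median of 7.76), also had no SCC25 array within the others. E-cadherin, CDH1, was higher by 0.24 and EPCAM was not called (-0.15). The epithelial transcription factor ELF3 was the one factor of 18 squamous regulators that left the range, at 5.90, 5.81 and 5.92 against 7.32 to 9.53 with a median of 8.80 (difference -2.79 ± 0.189, gap -1.62 ± 0.244). FOXN1 (1.86) and GRHL1 (1.52) were higher and GRHL3 (-1.22) lower within the range of the lines, and the list was balanced, with 7 higher, 5 lower and 6 not called.

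Late differentiation genes were not higher as a group: of 26 measured, 5 were higher, 8 lower and 13 not called (median difference -0.10). KRTDAP, a protein of differentiating keratinocytes, was the one outside the range, 8.38, 7.64 and 8.20 against 3.94 to 6.81 with a median of 4.83 (gap 1.65 ± 0.170). SCEL, sciellin of the cornified envelope, was at 4.03, 4.29 and 4.06, as low as SCC090 and far below SQ20B and SCC61 (difference -3.11 ± 0.134). TGM1, the transglutaminase that cross-links the envelope, was higher (1.42 ± 0.112) and SPRR3 lower (-1.80 ± 0.154). Genes of the mesenchymal state gave 8 higher, 5 lower and 6 not called, none outside the range: CALD1 (2.47), VIM (1.90) and TGFBI (1.89) were higher and SPARC (-1.92) lower.

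Of 31 measured matrix genes, 16 were higher and 7 lower, and 6 lay above the range. Besides LUM and LAMA1 these were TNC, COL5A2, COL1A1 and COL1A2. TNC, tenascin C of the tumour stroma, read 10.96, 10.95 and 10.92 in SCC25 and 4.53 to 9.87 with a median of 8.05 in the others (gap 1.93 ± 0.258), and all 3 of its probe sets agreed in direction. COL5A2, a chain of type V collagen, read 9.32, 9.26 and 8.98 against 3.73 to 7.84 with a median of 5.23 (gap 1.58 ± 0.148). The chains of type I collagen, COL1A1 (9.54, 9.47 and 9.59 against 5.28 to 8.94 with a median of 8.26) and COL1A2 (6.59, 6.43 and 6.46 against 4.59 to 5.77 with a median of 5.18), were above by less than 2-fold. The list median of 0.25 was small, since COL8A1 (-2.05), FBLN1 (-0.93) and others were lower.

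Among proteases and their inhibitors the kallikreins, serine proteases of the skin, gave 7 higher and 1 lower of 11 (median difference 0.71). KLK5 read 11.14, 11.02 and 11.14 in SCC25 against 4.47 to 9.18 with a median of 5.74 (gap 1.98 ± 0.103, adjusted p 5.03e-11), and HaCaT was as high (10.91). KLK7 also lay above the range, by 0.39 ± 0.0898. TIMP1, an inhibitor of metalloproteinases, lay below it at 7.64, 7.68 and 7.77 against 8.22 to 11.03 with a median of 10.68 (gap -0.63 ± 0.0986), and of 14 genes of that list 7 were higher and 5 lower. MMP1 and MMP10 were spread over the lines, with SCC047 highest in both (12.71 and 10.61). In the plasminogen system SERPINE2, protease nexin 1, lay above the range (10.58, 10.59 and 10.58 against 6.27 to 9.65 with a median of 8.82, gap 1.10 ± 0.148), TFPI2 (difference 3.59 ± 0.116) and F3 (1.63 ± 0.115) were higher and PLAT (-2.59 ± 0.101) lower. SERPINB13, a serpin of squamous epithelium, lay below the range (7.94, 7.68 and 7.55 against 8.97 to 10.75 with a median of 9.77).

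The gene of cetuximab's target, EGFR, did not leave the range of the lines, and its difference was not called with the probe set used here. EGFR read 11.30, 11.26 and 11.15 in SCC25, between the 10.95 of SCC047 and the 12.04 of SCC61. SQ20B had most (12.91) and SCC090 least (9.39), and the difference from the mean of the 5 was -0.0047 (SE 0.125, 95% interval -0.267 to 0.257, adjusted p 0.983). The value hung on the lines and the probe set: it was 0.41 without SQ20B, -0.47 without SCC090, and -0.75 with the EGFR probe set of the highest MAD ratio. ERBB2 (difference -0.52 ± 0.0672) and ERBB3 (-0.56 ± 0.0682) were lower than the mean of the lines and within their range, and ERBB4 was not called (-0.0034). Set against SQ20B and SCC61 alone, ERBB3 was higher by 0.31.

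Of 8 measured EGFR family ligands 4 were higher, none was lower and none left the range (median difference 0.34). EREG, epiregulin, read 6.44, 6.57 and 6.14 in SCC25, below SCC61 at 8.66 and above SQ20B at 4.42, while SCC047, SCC090 and 93VU147T were at 3.17 to 3.26 (difference 1.85 ± 0.0944). TGFA (0.58 ± 0.118), NRG1 (0.49 ± 0.183) and NRG4 (0.49 ± 0.107) were higher by less. EGF (0.18), BTC (0.04), NRG2 (-0.04) and HBEGF (-0.06) were not called. AREG and EPGN, also on the list, were not measured here. EREG rests on the choice of probe set: its other probe set differed by 0.0981. Against SQ20B and SCC61 alone the differences of EREG (-0.16), TGFA (-0.09) and NRG1 (-0.06) were below 0. Genes that report ERK output gave 6 higher, 7 lower and 9 not called of 22 (median -0.10), with PHLDA1 (1.37) and DUSP7 (1.00) highest and DUSP4 (-0.94) lowest.

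Other receptor tyrosine kinases were near the whole table as a list (5 higher and 9 lower of 25), with 3 outside the range. INSR, the insulin receptor, lay below it (5.26, 5.04 and 5.16 against 5.99 to 7.90 with a median of 6.65, gap -0.99 ± 0.0966), EPHA1, an ephrin receptor, above it (9.04, 8.93 and 9.0 against 6.86 to 8.58 with a median of 7.40, gap 0.49 ± 0.125), and RET above it at a difference of 0.39. Among negative regulators of EGFR, SOCS3 was lower (-1.38) and CBLB higher (1.12). The gene of the transcription factor AP-2 alpha, TFAP2A, read 10.08, 9.96 and 9.94 and was close to the threshold (difference 0.22 ± 0.0941, adjusted p 0.0592), and TFAP2C was lower by 0.34. Of the 5 measured AP-2 alpha targets that the study names as rising after EGFR inhibition in HaCaT cells, BMP4 (-0.68) and ERBB2 were lower, BMP2 (0.40) higher, and EGFR and IGF1R (0.06) were not called. Of the 4 named as falling there, TGFBR3 (-0.84) was lower, TGFA higher, and FGFR4 (-0.25) and VEGFA (-0.16) were not called.

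A run of 11q13 genes was high in SCC25. Of 12 measured, 9 were higher and 1 lower, the median difference was 1.47, and SHANK2, TPCN2, ANO1 and FGF19 lay above the range. TPCN2, a lysosomal ion channel, read 8.92, 8.84 and 8.99 against 5.23 to 7.96 with a median of 6.04 (gap 1.02 ± 0.0856). ANO1, a chloride channel, read 7.55, 7.46 and 7.61 against 5.18 to 7.01 with a median of 5.63 (gap 0.57 ± 0.103), and FGF19, a fibroblast growth factor, 5.85, 5.90 and 5.58 against 4.13 to 4.86 with a median of 4.54 (gap 1.17 ± 0.157). CCND1, cyclin D1, read 10.35, 10.33 and 10.19 and its 3 arrays lay above all 15 others (4.68 to 10.05 with a median of 8.58), but the gap of 0.48 ± 0.284 to 93VU147T did not pass. 93VU147T was as high as SCC25 or higher for FADD (11.42), PPFIA1 (12.05), CTTN (12.81) and LTO1 (8.15), where SCC25 differed from the mean of the lines by 2.0, 1.53, 1.45 and 1.33. MYEOV (-1.13) was lower, and FGF3 and FGF4 were not called. DNA copy number was not measured.

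CDKN2A, which encodes the cell cycle inhibitor p16 and is high in HPV-positive tumours, lay below the range. It read 5.84, 5.88 and 5.91 in SCC25 and from 6.72 to 12.16 elsewhere. SQ20B was nearest at 6.89 (gap -1.01 ± 0.126), SCC61 had 9.95 and the 3 HPV-positive lines 10.91 to 12.09. Of 10 genes associated with HPV in tumours, CDKN2A included, 8 were lower in SCC25, and CDKN2A alone left the range: SYCP2 (difference -2.80 ± 0.106) and ZFR2 (-1.81 ± 0.0738) were as dim in SQ20B and SCC61. MYB was higher (1.34 ± 0.0742), with SCC090 higher still at 7.17. Among the other cell cycle genes CDKN1C (1.73) and CDK6 (1.71) were higher within the range. Of 25 proliferation genes 9 were higher and 9 lower (median difference 0.03), and all 25 had a SCC25 level of 6 or more. In the p53 list 9 of 15 were lower and 3 higher, with XPC, a DNA repair protein, below the range by -0.32 ± 0.0806.

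Signalling lists gave a few strong members each. SFRP1, a secreted WNT antagonist, read 10.003, 10.01 and 9.995 in SCC25 against 4.05 to 7.83 with a median of 4.56 (gap 2.27 ± 0.113, adjusted p 2.32e-11). The WNT list as a whole was balanced, 10 higher and 9 lower of 27, and the receptor FZD2 lay below the range (6.91, 6.89 and 6.87 against 7.40 to 9.19 with a median of 8.21). In the TGF-beta and BMP list 15 were higher and 8 lower of 29 (median 0.37). GREM1, the BMP antagonist gremlin 1, read 5.77, 5.99 and 5.68 against 3.27 to 3.61 with a median of 3.47 (gap 2.27 ± 0.0930), and LTBP2, which binds latent TGF-beta, 8.97, 8.93 and 9.03 against 5.88 to 8.16 with a median of 7.03 (gap 0.83 ± 0.137). GDF15, a stress-induced member of the family, lay below at 4.71, 4.64 and 4.74 against 5.23 to 10.98 with a median of 8.60, with HaCaT lower still (4.42). In the Notch list the target gene HEY1 lay below the range (5.44, 5.47 and 5.67 against 6.62 to 11.93 with a median of 8.14, gap -1.14 ± 0.199) and the ligand JAG2 above it (10.26, 10.14 and 10.29 against 9.0 to 9.50 with a median of 9.24, gap 0.84 ± 0.0880), while the receptor gene NOTCH1 was not called.

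HOX genes, which record position along the body axis, were mostly higher: 16 of 25 were higher and 3 lower (median 0.41), and 4 lay above the range. HOXD10 read 9.77, 9.63 and 9.62 against 3.98 to 9.31 with a median of 7.70 (gap 0.45 ± 0.111), near SCC61 at 9.22 and far from SQ20B and SCC090 at 4.12 and 4.27. HOXC10 (8.30, 8.30 and 8.44 against 4.82 to 7.69 with a median of 5.75, gap 0.77 ± 0.107) and HOXC6 (8.89, 8.87 and 8.88 against 5.70 to 8.06 with a median of 7.50, gap 0.84 ± 0.102) were tighter, and HaCaT lay at 8.05 and 9.52, above all 5 other lines. The fourth was HOXC4, with a difference of 1.35. None of the 15 measured cancer-testis antigens was higher and 7 were lower.

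Interferon-induced genes were high in SCC25, but not there alone. Of 22 measured, 20 were higher than the mean of the lines (median difference 2.06) and none left the range. IFI27 read 12.97, 12.86 and 12.72 in SCC25, with SCC047 at 12.80 and 93VU147T at 11.94 and the other lines between 4.45 and 6.59. IFIT3 (11.03, 10.91 and 10.65) was lower than in SCC047 (11.30), and OAS2 (9.96, 9.81 and 9.52) overlapped it. MX1 and MX2 ran against the list. MX1, an antiviral GTPase, read 4.31, 4.14 and 4.54 in SCC25, just under SCC090 at 4.65, while SCC047 had 11.73 (difference -3.21 ± 0.108), and MX2 was lower by 0.98. Antigen presentation by class I molecules gave 10 higher and none lower of 12 (median 0.72), led by TAP2 (1.10), PSMB9 (1.07, but -0.0352 without SCC090), HLA-B (0.98) and HLA-F (0.97), all within the range of the lines. Of the chemokines CCL5 lay above the range (8.94, 8.72 and 8.88 against 4.94 to 7.54 with a median of 5.65, gap 1.43 ± 0.114). CXCL11 (difference 3.34 ± 0.157) was exceeded by SCC61 (9.35) and CXCL14 (3.22 ± 0.303) by SCC090 (10.15).

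In metabolism, genes of glycolysis and hypoxia were higher and those of sterol and fatty acid synthesis lower. Of 23 in the first list 14 were higher and 3 lower (median 0.46). CA12, a membrane carbonic anhydrase induced by hypoxia, read 10.01, 9.89 and 9.96 against 5.64 to 8.76 with a median of 6.73 (gap 1.32 ± 0.0871), NDRG1 11.92, 11.85 and 11.83 against 9.04 to 11.47 with a median of 10.12 (gap 0.98 ± 0.234) and SLC2A1, the glucose transporter GLUT1, 10.63, 10.39 and 10.47 against 8.0 to 9.96 with a median of 9.30 (gap 0.65 ± 0.175). PFKP, a phosphofructokinase, lay below the range (9.25, 9.17 and 9.29 against 9.66 to 11.17 with a median of 10.54). In the second list 11 of 15 were lower and 1 higher (median -0.94). FDPS, farnesyl diphosphate synthase, lay below the range (9.15, 9.08 and 9.19 against 9.57 to 11.37 with a median of 10.15, gap -0.45 ± 0.106), and so did SCD, a fatty acid desaturase (difference -1.02). HMGCS1 (-1.88) and INSIG1 (-1.29) were lower, with 93VU147T as low as SCC25 (7.19 and 7.83). NRF2 targets gave 8 higher and 11 lower of 21.

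**Figure D2:**
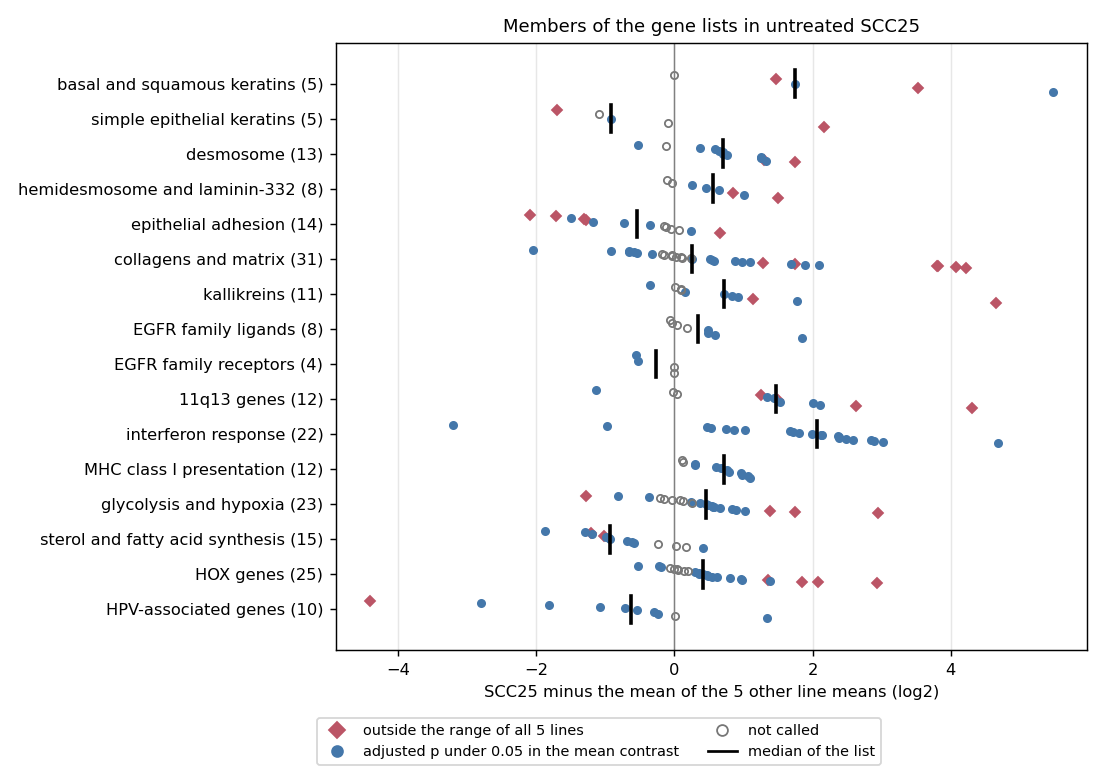
Difference between SCC25 and the mean of the 5 other line means (log2, x axis) for each measured member of 16 gene lists (rows, number of members in brackets); red diamonds lie outside the range of all 5 lines, filled blue circles passed the mean contrast, open circles passed neither, and black bars are list medians. Interferon genes have the highest median (2.06) with no member outside the range, and collagens and matrix have 6 members outside it with a median of 0.25.

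Markers of other cell types were read as a check of the label. SCC25 carried KRT5, KRT14 and desmosome genes at the levels above. Of 7 leukocyte markers none reached 6 in SCC25, and their summed level was 37.5 against 34.3 to 40.8 in the other lines. Endothelial (34.0 against 33.7 to 35.7), melanocyte (31.1 against 30.7 to 32.7) and neuroendocrine markers (27.5 against 27.1 to 28.7) lay within or near the other lines. The fibroblast list had a summed level of 55.6 against 43.6 to 51.2. That sum holds LUM, a lead gene chosen for its level (mean 7.54 against line means of 2.99 to 3.75). It also holds COL1A1 and COL1A2, both called above the range, so nothing is read from the sum. LUM, COL1A1, COL1A2, FAP and THY1 were higher, COL3A1 was lower, and PDGFRA, PDGFRB and DCN were not called. DCN was higher by 0.34 with the probe set of the highest MAD ratio. The part of other cells in the LUM and collagen levels was not tested.

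Genes outside the range lay next to each other in several places. In RefSeq order, stretches were kept where a window of 10 expressed neighbours held at least 6 genes outside the range in the same direction. SCC25 had 3 such stretches above the range with 29 genes outside it, and 4 below with 28. By the same count the other lines had 7 to 29 stretches above and 0 to 12 below, with most in SCC090 (29 above and 12 below), so such stretches are not particular to SCC25. On chromosome 11 the stretch from XNDC1N to PAAF1 held 23 expressed genes, of which 22 differed upwards and 16 lay above the range (median difference 1.08), with FOLR3, a folate receptor, at 8.66, 8.51 and 8.49 against 4.46 to 6.76 with a median of 5.15. It lies beyond SHANK2 on the long arm. On chromosome 1 the stretch from DPYD to RTCA had 6 of 9 genes above the range, among them DPYD, which breaks down pyrimidines (difference 2.90 ± 0.146), and PALMD (3.68 ± 0.173). On chromosome 19, from GCDH to NACC1, 7 of 9 lay above.

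The stretches below were 9 of 13 genes from USP1 to MIER1 and 6 of 10 from PRKACB to BCL10 on chromosome 1, 7 of 11 from RAD18 to RPUSD3 on chromosome 3, and 6 of 10 from RIPK4 to NDUFV3 on chromosome 21. The chromosome 3 stretch held RAD18 (difference -1.92 ± 0.0887) and OGG1 (-1.71 ± 0.0982), both of DNA repair. The chromosome 21 stretch had the lowest median difference, -1.90, and held 3 genes below by 2-fold or more: RIPK4, PRDM15 and ZBTB21. All 10 of its expressed genes were lower, among them ABCG1, a cholesterol exporter, at 3.22, 3.32 and 3.22, against 3.71 to 9.59 with a median of 8.02, which did not pass the range test, with SQ20B at a mean of 4.03. MX2 and MX1, the members that ran against the interferon list, come before RIPK4 in RefSeq order with TMPRSS2, which was not called, between them and it. This was seen after the values were known. Whether DNA was lost or gained at any of these places was not tested.

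**Figure D3:**
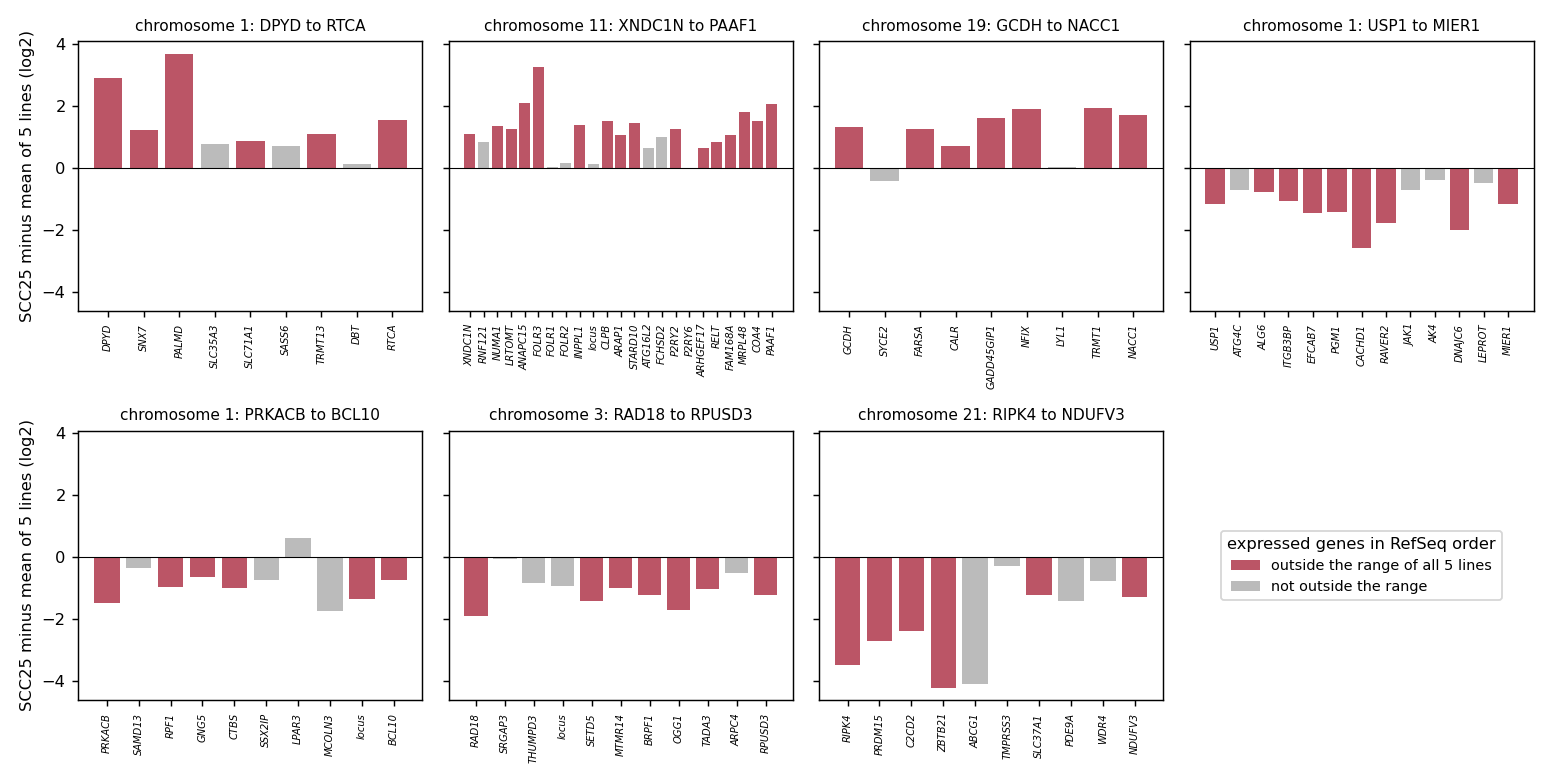
Difference between SCC25 and the mean of the 5 other line means (log2, y axis) for the expressed genes of the 7 stretches, each panel 1 stretch with its genes in RefSeq order and unnamed loci marked as locus; red bars lie outside the range of all 5 lines and grey bars do not. The bars of a panel point almost all one way, and the chromosome 21 panel reaches lowest (ZBTB21, -4.23).

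Over whole chromosomes, chromosome 3 had 13 genes above the range and 48 below it of 1118, and chromosome 15 had 12 and 30 of 612. Chromosome 14 had 32 above (5.24%) and 2 below (0.327%) of 611. Chromosome 10 had 31 (3.99%) and 4 (0.515%) of 777, and chromosome 11 had 48 (4.2%) and 9 (0.787%) of 1143. The median differences of these chromosomes were -0.04, -0.08, 0.13, 0.06 and 0.03. They are not the only ones away from the shares of all genes. Chromosome 21 had 4 above (1.65%) and 12 below (4.96%) of 242, and X had 18 (2.59%) and 32 (4.6%) of 696. Chromosome 19 was high in both directions, with 43 (3.26%) and 51 (3.86%) of 1320.

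The genes were chosen on control arrays, so the cetuximab arrays give the same measure in samples the choice did not use. There the same rule, SCC25 against the same 5 lines, called 804 genes above (4.07%) and 985 below (4.98%). Of the 480 genes above in control arrays 365 were called again (76.0%, and 45.4% of the 804), and of the 433 below 324 (74.8%, and 32.9% of the 985). Among those outside by 2-fold or more, 131 of 141 above and 68 of 70 below were called again. The sign of the difference turned for 1 of the 480 and for none of the 433. For 129 of the 131 and 61 of the 68, the treated SCC25 mean also lay beyond that of SCC1, another HNSCC line with treated arrays. The genes of these sets that were not called again, as far as they have a name, were MMP3, GJB2, KRTDAP, HOPX, NAP1L2, AHNAK2, IL12RB2, SMTN, CDC42EP3 and FOXL2. The difference between SCC25 and the other lines changed with treatment at an adjusted p under 0.05 for 57 of the 141 and narrowed in 25 of these, and for 20 of the 70 and narrowed in 13, against 19.9% of all genes. This measure uses the control arrays on which the genes were chosen, so nothing is read from its counts.

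**Figure D4:**
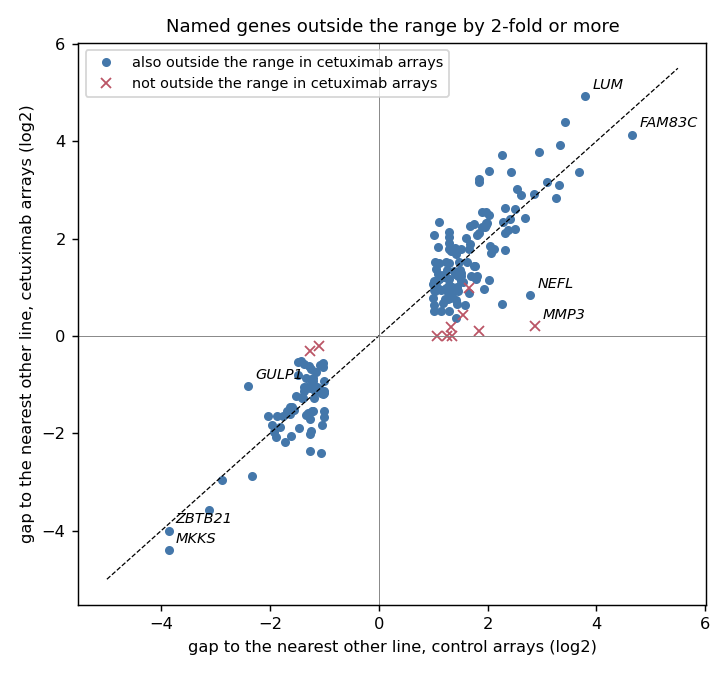
Gap to the nearest other line in control arrays (x axis) and in cetuximab arrays (y axis), both log2, for the 195 named genes outside the range by 2-fold or more; blue circles are also outside the range in cetuximab arrays, red crosses are not, and the dashed line marks equal gaps. Most genes lie near the line, LUM lies above it (3.79 and 4.93) and MMP3 far below it (2.88 and 0.20).

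HaCaT, which is no carcinoma, was set beside the genes outside the range by 2-fold or more. The SCC25 mean lay beyond the HaCaT mean in the same direction for 138 of the 141 genes above (97.9%) and 65 of the 70 below (92.9%). It did so by 2-fold or more for 118 and 49. The genes were chosen because SCC25 was extreme, so these counts do not tell how far HaCaT shares the program. LOXL1, for example, was at 8.23 in HaCaT and 8.40 in SCC25, both above all arrays of the other lines (up to 6.85). HaCaT arrays form a date group of their own by their array names, and the difference in culture and in date cannot be told apart for them.

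By its number of genes outside the range SCC25 was not the most distinct of the 6 lines. The same rule applied to each line in turn gave 470 genes above by 2-fold or more in SCC090, 246 in SCC047, 210 in SCC61, 143 in SQ20B, 141 in SCC25 and 131 in 93VU147T. Below by 2-fold or more there were 349 in SCC090, 206 in SCC61, 180 in SQ20B, 111 in 93VU147T, 70 in SCC25 and 42 in SCC047.

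**Figure D5:**
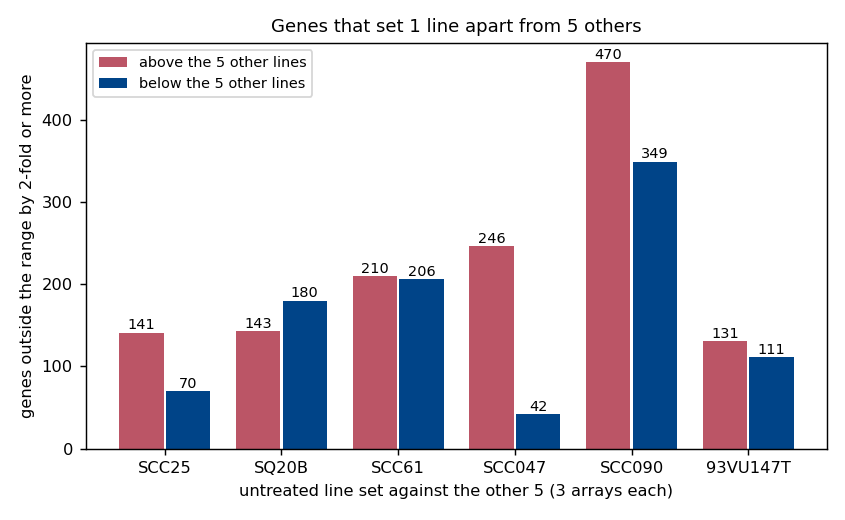
Number of genes outside the range of the other 5 lines by 2-fold or more (y axis, from 0) for each untreated line in turn, red above and blue below, 3 arrays a line. SCC25 has 141 above and 70 below, and SCC090 has most in both directions (470 and 349).

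Further genes outside the range by 2-fold or more were picked after their values were seen, and only some fall under the same headings. LOX, lysyl oxidase, which cross-links collagen, read 11.23, 11.06 and 11.14 in SCC25 and 4.28 to 9.64 with a median of 5.32 in the others (gap 1.54 ± 0.169), and LOXL1 (1.68), CTSK (1.85), a collagen-degrading cathepsin, NID2 (2.04) and XYLT1 (2.51), which starts the sugar chains of proteoglycans, are further matrix genes. PTGS1, cyclooxygenase 1, read 11.39, 11.28 and 11.36 against 4.94 to 9.50 with a median of 8.08 (gap 1.90 ± 0.0872). Genes usually read in other cell types also stood above the range. They were TREM2 (2.31), LPXN (2.32), HCLS1 (1.62) and LSP1 (1.30) of blood cells, EDNRB (2.06), an endothelin receptor of melanocytes and vessels, and KRT31 (2.41), a hair keratin. HCLS1 was at 7.52 in SCC61. The fixed lists read otherwise. Of 7 leukocyte markers 2 were higher, 1 was lower and none reached 6 in SCC25. Of 7 endothelial and 6 melanocyte markers none was higher, and 1 in each list was lower. Below the range were HS2ST1 (-1.60), CRBN (-1.53), the target of thalidomide, CCN2 (-1.37), a matricellular protein, TLR3 (-1.26), a sensor of double-stranded RNA, and PLAC8 (-1.19). Matrix genes lay there too, among them LAMB2 (-1.27) and ADAMTS1 (-1.07).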

How the data were processed

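RNA of HNSCC lines was hybridised to Affymetrix hgu133plus2.0 arrays after biotin labelling. The deposited values are log2 intensities, which the authors made from the arrays with frozen robust multi-array analysis (fRMA 1.16.0 per the labels). The methods also name pSVA, a batch correction. Its use on the deposited values is not given in the sources used here. Array medians lay between 5.09 and 5.16.

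Of 54675 probe sets, 62 controls were left out, 41091 had 1 gene symbol in the platform annotation, 1801 had several and 11721 were not listed. Each of 19775 genes (10523 have several probe sets) was read from its brightest probe set, by the mean of all 42 arrays. With limma 3.58.1 in R 4.3.3, group means were fitted to the 18 control arrays (12 residual and 6.697 prior degrees of freedom), and SCC25 was tested against the mean of the 5 line means and against each line, with Benjamini-Hochberg adjustment over all genes. The range call used the largest of the 5 p-values. Treated arrays were fitted in the same way, and the interaction was tested on 36 arrays. The fits were tested on simulated data. Tables, promoters and figures were made in Python 3.11.15, and neighbours were ordered by RefSeq.

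The members, gene lists and promoters were chosen with earlier results of these data known. Named by rule were the 15 largest gaps in each direction, the 4 largest called differences of each list, all EGFR family, AP-2 alpha target and 11q13 genes, and members of the neighbour stretches. Other list members and the genes of the last paragraph were named after their values were seen. Some genes are not analysed here, and Y-linked and X-inactivation genes are not printed. Of 738 list entries, 664 genes were measured.

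Alternatives were the choice of probe set, a filter on dim genes, centring, quantile normalization, a replicate block, more arrays in the fit, array date group (SQ20B replicate 3 was dated apart from the other 17), moderation, a minimum size, SQ20B and SCC61 alone, HaCaT as a line, and leaving out each line or array. Nothing in the labels says that arrays of a line came from separate cultures, so their spread may be technical.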

Additional observations from a re-analysis of the deposited data

Results flagged for a closer look

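The difference between SCC25 and the mean of the 5 other lines changed with cetuximab for 4 of the 30 leading genes by more than 2-fold. All 4 were flagged because the change passed a test of the difference itself (limma interaction over 36 arrays), and the genes had been chosen on control arrays that the interaction also uses. The difference grew by 1.65 on the log2 scale for LUM (adjusted p 9.97e-09) and by 1.01 for XG (adjusted p 9.58e-06). It changed by -1.98 for MMP3 (adjusted p 5.49e-10) and by -1.51 for NEFL (adjusted p 5.01e-09). In SCC25 itself cetuximab changed LUM by 1.80, XG by 1.14, MMP3 by -1.70 and NEFL by -0.09, the last not called.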

How the results depend on the processing

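All 141 genes above the range by 2-fold or more, and all 70 below it, were called again under centring, quantile normalization, the replicate block, 36 or 42 arrays in the fit, the date group, other moderation, a minimum size and the loss of any 1 line or array. Exceptions were the mean of all probe sets (140 and 69), the probe set of the highest MAD ratio (139 and 68, with XG lost) and HaCaT added as a line (127 and 60, with GSPT2, CYP2R1, FAR2 and SNHG17 lost). The filter on dim genes tested 124 of the 141 and called all of them. The minimum size asked for a gap under 2-fold, and leaving out a line cannot narrow a gap. Neither setting could lose a gene chosen at 2-fold or more, so nothing is read from them for these genes. The replicate block, more arrays in the fit, the date group and other moderation left the array values as they were. There only the fitted differences and their test could lose a gene. Leaving out an array cannot make separated arrays overlap, so these settings were a weak check. Leaving out 1 array at a time gave 397 to 507 genes above the range and 352 to 444 below, at least 136 and 66 to 75 by 2-fold or more, and 3745 to 4429 higher and 4119 to 4936 lower than the mean. Counts that moved by over 1.5 times did so mainly with fewer lines, since fewer lines span a narrower range. Against SQ20B and SCC61 alone 2224 lay above and 1843 below, 553 and 368 by 2-fold or more. Without SCC047 there were 213 above by 2-fold or more. Without SCC090 there were 765 above and 706 below, 127 of them by 2-fold or more, without SCC61 705 below, and without SQ20B 733 above and 689 below, 119 of these by 2-fold or more. With the mean of all probe sets 38 lay below by 2-fold or more. With a minimum size of change 483 were higher and 321 lower than the mean, and 271 lay below the range. Replicate numbers did not pair the arrays (median correlation of deviations -0.018 over 45 same-number pairs and 0.017 over 90 others), and with the replicate as a block 468 lay above and 410 below, 141 and 70 by 2-fold or more, with 4246 higher and 4744 lower.

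Some differences in the text turned sign. With the probe set of the highest MAD ratio, DST was at -0.0177 and DCN at 0.34. Against SQ20B and SCC61 alone, BMP2 was at -0.21, CHGB 0.0627, ERBB3 0.31, EREG -0.16, FGFR4 0.38, NRG1 -0.0578 and TGFA -0.0888. Without SCC090, BMP2 was at -0.19, CHGB 0.0748, NRG1 -0.33 and PSMB9 -0.0352, and without SQ20B EGFR was at 0.41. Calls near the threshold were unstable. Over up to 35 settings, TFAP2A passed in 11 (adjusted p 1.9e-05 to 0.722), BMP2 in 10, CDH1 in 18, CHGB in 20, EPCAM in 12, EGF in 7 and NRG1 in 28. EGFR, which was not near the threshold in the main fit, passed in 4 (adjusted p 3.12e-07 to 0.999). The cause was not tested.

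Each of the 6 lines is 1 line, the p-values do not cover differences between lines of a kind, and tumour of origin and other features of a single line cannot be told apart.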
